A study of Homo sapiens with 12 samples.

Results

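DKK1 and 9 other genes that restrain Wnt signalling (DKK3, KREMEN1, DACT1, RNF43, ZNRF3, FRZB, AXIN2, APC and GSK3B) were followed in H929 myeloma cells treated with a histone deacetylase inhibitor, an aminopeptidase inhibitor or both. The genes were chosen by name, with earlier results of these data known. Each was measured by every probe set (a group of probes for the same transcript) that the array annotation assigns to it. These are 33 probe sets of the 54675 on the array, none of them shared with another gene. A probe set was tested if 3 or more of the 12 arrays gave it a value above their own 40th percentile. That left 19 of the 33, with at least 1 for each of the 10 genes, and 36395 of the 54613 probe sets other than controls.

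H929 is a human myeloma cell line, here grown in RPMI medium with serum, and every group therefore comes from the same line. The combination cells received 250 nM CHR-3996, the histone deacetylase inhibitor, together with 1 µM tosedostat, the aminopeptidase inhibitor, for 24 hours. The CHR-3996 cells received 250 nM CHR-3996 for 24 hours, the tosedostat cells received 1 µM tosedostat for 24 hours, and the untreated cells are labelled with no compound and no vehicle. RNA of 3 samples per group was hybridised to Affymetrix U133 Plus 2.0 arrays, and the samples are labelled as biological replicates. Nothing more states whether they came from separate cultures, so the p-values cover no more than the spread among these arrays, and the number of arrays limits the precision.

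Canonical Wnt signals act through Frizzled receptors and the co-receptors LRP5 and LRP6, and they protect β-catenin from a destruction complex that contains AXIN, APC and GSK3B. Antagonists work at each level: Dickkopf and Frizzled-related proteins outside the cell, membrane ubiquitin ligases that remove Frizzled from the surface, and the destruction complex inside. DKK1 is best known in myeloma because plasma cells can secrete it into the marrow, where it restrains the Wnt signals on which bone-forming osteoblasts depend.

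All values are the deposited log2 expression values, and changes are differences between group means on that scale. Called means that the p-value of a limma fit to all 12 arrays, adjusted by Benjamini and Hochberg over all tested probe sets, was under 0.05. Array medians were 5.26 to 5.30 in the combination, 5.24 to 5.29 under CHR-3996, 5.04 to 5.06 under tosedostat and 5.0 to 5.06 in untreated cells. Setting the arrays to the same median moved the median change over all tested probe sets, CHR-3996 against untreated, to -0.11, against 0.11 as deposited, and quantile normalization moved it to -0.10. The 3′ signal of the β-actin control exceeded its 5′ signal by 1.24 ± 0.15 in the combination, 1.59 ± 0.17 under CHR-3996, 2.09 ± 0.11 under tosedostat and 2.14 ± 0.17 in untreated cells (log2, SD, n = 3 each). All 8 listed plasma cell markers passed the filter, with a mean log2 level of 11.22 to 11.30 on the combination arrays, 10.83 to 11.44 under CHR-3996, 11.82 to 11.97 under tosedostat and 11.70 to 11.85 in untreated cells. SDC1, TNFRSF17, MZB1 and XBP1 were called lower under CHR-3996, and CD38, IRF4, PRDM1 and SLAMF7 were not called. Under the combination SDC1, TNFRSF17 and MZB1 were called lower and CD38 higher (0.81, adjusted p = 0.00879 from limma). Over all genes 31.7% were called higher and 18.0% lower under CHR-3996, and 34.6% higher and 15.9% lower under the combination. Of 10 markers of other marrow cells 5 passed (CD3E, LYZ, HBB, COL1A1 and DCN), with a mean level of 6.16 to 6.57 in the combination, 6.14 to 6.39 under CHR-3996, 5.49 to 5.74 under tosedostat and 5.50 to 5.75 in untreated cells. LYZ and HBB were called higher under CHR-3996 (2.03 and 1.67) and under the combination (2.04 and 1.72), and no tested marker was at 0 on any array. LYZ averaged 2.84 in untreated cells and 3.02 under tosedostat. It thus passed the filter only through the groups with CHR-3996, which favoured its calls. The part of these differences in the results that follow was not tested. Every group is the same cell line, and bulk RNA gives a mean over its cells.

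DKK1, the secreted antagonist that binds LRP5 and LRP6, was high in both groups that received CHR-3996 and lowest in cells that received tosedostat alone. Its 1 probe set, 204602_at, measured 9.86, 10.01 and 10.38 in the combination, 9.61, 10.09 and 10.19 under CHR-3996, 5.50, 6.05 and 6.20 under tosedostat, and 6.90, 6.95 and 7.29 in untreated cells. The combination and CHR-3996 arrays overlapped, all 6 lay above every untreated array, and all 3 tosedostat arrays lay below every untreated array. The mean was 10.08 ± 0.26 in the combination, 9.97 ± 0.31 under CHR-3996, 5.92 ± 0.37 under tosedostat and 7.05 ± 0.21 in untreated cells (SD, n = 3 each). In order of level the combination and CHR-3996 came first and did not differ beyond their spread, followed by untreated cells and then tosedostat.

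**Figure D1:**
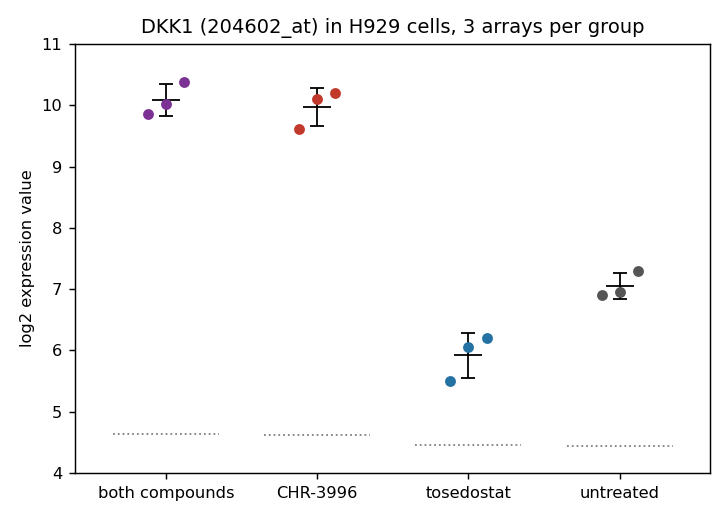
DKK1 log2 expression value (vertical axis) on each of the 3 arrays of each group (points), with the group mean and SD (bars) and the mean 40th percentile of the arrays (dotted lines). The combination and CHR-3996 arrays sit between 9.61 and 10.38, the tosedostat arrays between 5.50 and 6.20 and the untreated arrays between 6.90 and 7.29.

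The stretch of genome just before the DKK1 start is shown because this gene had the largest rise under CHR-3996 among the 19 tested probe sets. The sequence is from RefSeq, GRCh38.p14, chr10:52314031-52314280 on the plus strand, and is the 250 bases that end at the base before the annotated start. Capitals mark, from left to right, a GC box, a pair of TCF/LEF motifs and a TATA box.
DKK1: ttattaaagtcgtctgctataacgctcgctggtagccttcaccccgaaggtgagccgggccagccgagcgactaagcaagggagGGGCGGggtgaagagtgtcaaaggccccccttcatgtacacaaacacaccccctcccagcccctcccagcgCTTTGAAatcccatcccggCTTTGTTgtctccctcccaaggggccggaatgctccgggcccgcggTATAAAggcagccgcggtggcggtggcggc
The TCF/LEF motif, the element that β-catenin partners bind, was searched on both strands as CTTTGAA or CTTTGAT and also as CTTTGTA or CTTTGTT, and its matches lie 95 to 89 and 76 to 70 bases before the start. The GC box (GGGCGG) lies 166 to 161 and the TATA box (TATAAA) 30 to 25 bases before the start, and none of these matches overlap. Of 35116 promoters of the same length in the table, 12% hold a TCF/LEF match, 42.6% a GC box and 10.7% a TATA box. GC content was 62.8%, against a median of 58.0% over those promoters. Of the 10 genes, 6 had a promoter in the table (DKK1, DACT1, RNF43, FRZB, APC and GSK3B), and DKK1 alone among them held a TCF/LEF match or a TATA box. GC boxes were found in 5 of the 6, with RNF43 the exception. The motifs TGACGT (CRE) and TGANTCA (AP-1) were also searched and were not found in DKK1. DACT1 alone held a CRE match and RNF43 alone an AP-1 match. These motifs occur in 7.1% and 6.6% of all the promoters. A match is a string of letters and shows no binding.

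DKK1 rose under the combination and under CHR-3996, each against the same untreated arrays. Against untreated cells the combination raised DKK1 by 3.03 (standard error 0.22, 95% interval 2.54 to 3.53, adjusted p = 1.46e-06 from limma), an 8.18-fold increase. CHR-3996 raised it by 2.92 (95% interval 2.42 to 3.41, adjusted p = 2.05e-06), a 7.55-fold increase, and this rise ranged between 2.64 and 3.09 and stayed past the threshold in all 19 alternative analyses. Of 15587 genes, each taken by its brightest tested probe set and DKK1 included, 350 rose at least as far as DKK1 under the combination and 356 under CHR-3996.

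Tosedostat lowered DKK1 2.19-fold. The log2 change was -1.13 (standard error 0.22, 95% interval -1.63 to -0.64, adjusted p = 0.0205 from limma), and it was the only one of the 19 probe sets of the antagonists called under this compound, where 3.23% of all tested probe sets were called higher and 0.451% lower. Of the 15587 genes, 55 fell at least as far, DKK1 included, and 17 of these were among the 85 genes called lower. The direction held in all 19 alternative analyses, but the call was lost in 5 of them, and the adjusted p ranged between 0.00156 and 0.0840. It was lost without tosedostat replicate 1 (-0.93, adjusted p = 0.0689), tosedostat replicate 2 (-1.20, adjusted p = 0.0522) or untreated replicate 3 (-1.01, adjusted p = 0.0840), and with no filter (adjusted p = 0.0563) or a fit to these 6 arrays alone (adjusted p = 0.0648).

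In cells that also received CHR-3996, tosedostat gave no called change of DKK1. The combination exceeded CHR-3996 in DKK1 by 0.12 (95% interval -0.38 to 0.61, adjusted p = 0.907 from limma). On the log2 scale the effects of CHR-3996 and of tosedostat alone summed to 1.78, against a measured effect of 3.03 for both, so that the mean level was 10.08 with both compounds and 8.83 from the sum. The difference between these effects, 1.25 (standard error 0.32, unadjusted 95% interval 0.55 to 1.95), did not pass the test over all probe sets (adjusted p = 0.186). The combination exceeded tosedostat by 4.17 (adjusted p = 4.27e-07) and CHR-3996 exceeded tosedostat by 4.05, 16.5-fold (adjusted p = 5.15e-07), and 51 of the 15587 genes, DKK1 included, stood as far above tosedostat in the combination and 66 under CHR-3996.

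By the rule that names genes of similar pattern, MAP2K6 followed DKK1 most closely over the 12 arrays, with a Pearson r of 0.992 and a Spearman rho of 0.923. MAP2K6, a kinase that activates p38, averaged 8.99 ± 0.02 in the combination, 9.01 ± 0.14 under CHR-3996, 5.66 ± 0.19 under tosedostat and 6.67 ± 0.17 in untreated cells (SD, n = 3 each). Its level fell by 1.01 under tosedostat (log2 fold change -1.01, adjusted p = 0.00233 from limma). MAP2K6 was picked for its likeness to DKK1 over these same 12 arrays, those of tosedostat included. That choice favoured a fall, so the p-value is not an independent test beside that of DKK1. TIPARP, an ADP-ribosyltransferase (r = 0.990), PELI2, a ubiquitin ligase of the Pellino family (r = 0.989), ITM2A, a membrane protein (r = 0.989), and GUCY1B1, a subunit of soluble guanylate cyclase (r = 0.988), came next of 15586 genes compared. These had tosedostat changes of -0.30, -0.94, -0.46 and -0.35, none of them called. Among the other 9 antagonists, r with DKK1 was 0.951 for GSK3B, 0.906 for KREMEN1, 0.880 for DACT1, 0.823 for APC, 0.797 for RNF43, 0.199 for AXIN2, 0.047 for FRZB, -0.744 for DKK3 and -0.805 for ZNRF3. With all genes ordered by r and DKK1 itself first, GSK3B ranked 458, KREMEN1 1519, DACT1 2166, APC 3258 and RNF43 3620. Their Spearman rho was 0.72, 0.66, 0.70, 0.68 and 0.62, in that order. Many other genes thus followed DKK1 more closely by r. The arrays share 4 group means, so these correlations mainly compare 4 levels and describe this experiment only.

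Counted by gene, 6 of the 10 antagonists (DKK1, KREMEN1, DACT1, RNF43, APC and GSK3B) were called higher and 2 (DKK3 and ZNRF3) lower under the combination, against untreated cells. Over all 15587 genes, 34.6% were called higher and 15.9% lower in that comparison, and the median change was 0.82 for the antagonists and 0.15 for all genes. Of the 19 probe sets 10 were called higher and 2 lower under the combination, against 32.0% and 14.1% of all tested probe sets, and 11 were higher and 2 lower under CHR-3996, against 29.4% and 15.7%. The same 6 were called higher and the same 2 lower under CHR-3996, where 31.7% of all genes were called higher and 18.0% lower, with medians of 0.72 and 0.11. With quantile normalization or equal array medians 6 were called higher and 3 lower under the combination, AXIN2 joining those called lower, and the counts under CHR-3996 were 5 higher and 3 lower by the brightest probe set, APC dropping out and AXIN2 again lower. Under tosedostat 0 were higher and 1 lower (DKK1), against 4.25% and 0.545% of all genes, with medians of -0.02 for the antagonists and 0.04 for all genes. No probe set of the antagonists was higher and 2 were lower at an unadjusted p under 0.05, DKK1 and APC 215310_at (-0.49). Over the whole array all tested probe sets together gave 1338 calls, or 2309 with the replicate number as a block. These comparisons share the untreated arrays, and no test of the 10 genes as a list was made. The 10 genes were chosen with earlier results of these data known, which limits what their counts and medians beside all genes can show. The brightest probe sets of KREMEN1, DACT1, RNF43 and DKK3 passed the filter only through the groups where they were high, which favoured their calls.

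**Figure D2:**
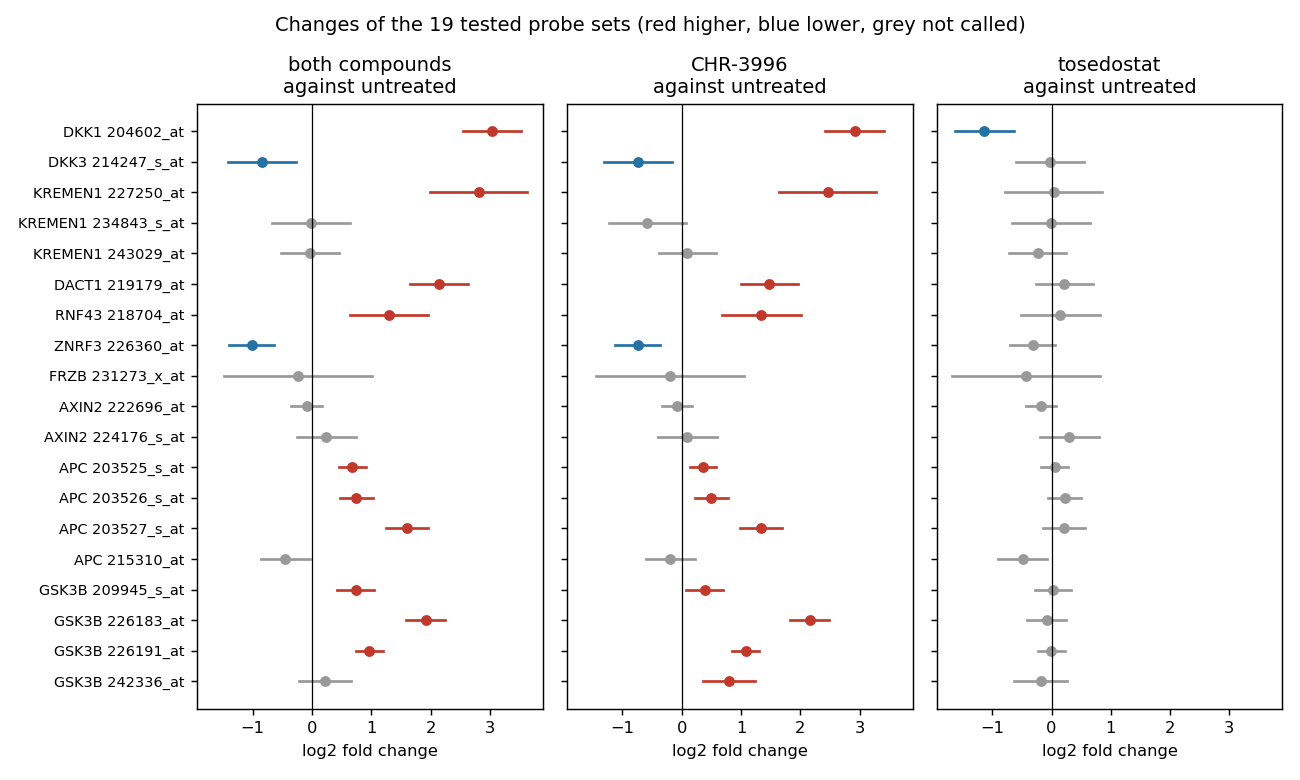
Log2 fold change of each of the 19 tested probe sets (horizontal axes) with its 95% interval, for the combination, CHR-3996 and tosedostat, each against untreated cells. Under tosedostat the DKK1 probe set at -1.13 is the only one called, and GSK3B and APC probe sets of the same gene differ in the size of their changes under CHR-3996.

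The secreted antagonists other than DKK1 gave low values. DKK3, a divergent Dickkopf protein whose part in Wnt signalling is less settled, had 6 probe sets, of which 1 passed the filter. That probe set, 214247_s_at, measured 4.04, 4.21 and 3.99 in the combination, 4.07, 4.33 and 4.15 under CHR-3996, 4.41, 5.34 and 4.96 under tosedostat, and 4.42, 5.40 and 4.96 in untreated cells. All 6 arrays with CHR-3996 lay below the other 6 and below the 40th percentile of their own array. DKK3 thus passed the filter only through the groups where it was high, which favoured a call. Such values say little about the size of the difference. DKK3 fell by 0.85 under the combination (log2 fold change -0.85, adjusted p = 0.0199 from limma) and by 0.74 under CHR-3996 (log2 fold change -0.74, adjusted p = 0.0368), and tosedostat gave -0.03 (95% interval -0.60 to 0.55). The CHR-3996 call was lost in 7 of 18 alternatives (adjusted p 0.00588 to 0.143), among them no filter, a variance trend with robust estimation, and leaving out CHR-3996 replicate 1 (-0.69), 2 (-0.82) or 3 (-0.73) or untreated replicate 2 (-0.51) or 3 (-0.73). The combination call was lost without combination replicate 1 (-0.83) or 3 (-0.80) or untreated replicate 2 (-0.61) or 3 (-0.83), with adjusted p of 0.00285 to 0.0796 over its alternatives. CHR-3996 was also lower than tosedostat (-0.72, adjusted p = 0.0445), a call lost in 12 of 18 alternatives (adjusted p 0.00755 to 0.165).

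FRZB, a secreted Frizzled-related protein that binds Wnt ligands, was not called in any of the 7 contrasts. Its 1 tested probe set of 4, 231273_x_at, measured 4.88, 2.90 and 5.23 in the combination, 4.86, 3.29 and 4.99 under CHR-3996, 4.34, 3.97 and 4.14 under tosedostat, and 4.35, 4.70 and 4.68 in untreated cells. The groups with CHR-3996 each held 1 array far below the other 2, and the interval of the change under CHR-3996 ran from -1.44 to 1.05, so a sizeable change in either direction could not have been detected.

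KREMEN1, the transmembrane receptor that joins DKK1 in removing LRP6 from the cell surface, rose together with DKK1 by its brightest probe set. For 227250_at the values were 7.60, 7.49 and 7.08 in the combination, 7.38, 7.0 and 6.74 under CHR-3996, 4.44, 4.96 and 4.45 under tosedostat, and 3.89, 5.58 and 4.27 in untreated cells. Every array with CHR-3996 lay above every array without it, while tosedostat and untreated arrays overlapped. For this probe set 2 of 3 tosedostat arrays and 2 of 3 untreated arrays were below their 40th percentile. It thus passed the filter only through the groups where it was high, which favoured a call, and the size of the rise is uncertain. The change was 2.81 for the combination (95% interval 1.99 to 3.63, adjusted p = 8.97e-05 from limma) and 2.46 for CHR-3996 (95% interval 1.65 to 3.28, adjusted p = 0.000239), and both calls held in all 19 alternatives. Tosedostat moved it by 0.04 (95% interval -0.78 to 0.86), and the combination exceeded CHR-3996 by 0.35 (95% interval -0.47 to 1.17, adjusted p = 0.806). KREMEN1 had 5 probe sets, and the 2 others tested, 234843_s_at and 243029_at, had changes of -0.02 and -0.03 under the combination and -0.58 and 0.09 under CHR-3996, none called, although 234843_s_at was called lower without CHR-3996 replicate 1 (-0.85, adjusted p = 0.0397). The rise of KREMEN1 rests on 1 of its 3 tested probe sets.

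RNF43 and ZNRF3, the related membrane ubiquitin ligases that mark Frizzled receptors for removal, were called in opposite directions, RNF43 near the low end of the arrays. RNF43 (218704_at) measured 5.80, 4.87 and 4.67 in the combination, 5.21, 5.25 and 5.0 under CHR-3996, 4.27, 3.52 and 4.09 under tosedostat, and 4.24, 3.52 and 3.68 in untreated cells. All 6 arrays with CHR-3996 lay above the other 6, which were all below the 40th percentile of their array. RNF43 thus passed the filter only through the groups where it was high, which favoured a call, and the size of its change is uncertain. RNF43 rose by 1.30 under the combination (95% interval 0.63 to 1.97, adjusted p = 0.00430 from limma) and by 1.34 under CHR-3996 (95% interval 0.67 to 2.00, adjusted p = 0.00362). ZNRF3 (226360_at) measured 7.90, 7.42 and 7.54 in the combination, 8.09, 7.71 and 7.88 under CHR-3996, 8.60, 8.11 and 8.25 under tosedostat, and 8.74, 8.62 and 8.55 in untreated cells. Each array with CHR-3996 lay below all arrays without it, and neighbouring groups in the order combination, CHR-3996, tosedostat, untreated did not pass the test against each other. ZNRF3 fell by 1.02 under the combination (log2 fold change -1.02, adjusted p = 0.000489 from limma) and by 0.74 under CHR-3996 (log2 fold change -0.74, adjusted p = 0.00396), while tosedostat gave -0.32 (95% interval -0.69 to 0.05, adjusted p = 0.398). CHR-3996 was 0.42 below tosedostat in ZNRF3 (log2 difference -0.42, adjusted p = 0.0669 from limma). This difference was called in 8 of 19 alternatives, with adjusted p of 0.00808 to 0.239. The lowest value came with the replicate number as a block, a fit that also held the untreated arrays. Same-numbered arrays correlated by at least 0.116 between CHR-3996 and tosedostat, but by as little as 0.0358 between CHR-3996 and untreated cells. Against untreated cells, the RNF43 calls held in all 18 alternatives and the ZNRF3 calls in all 19.

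**Figure D3:**
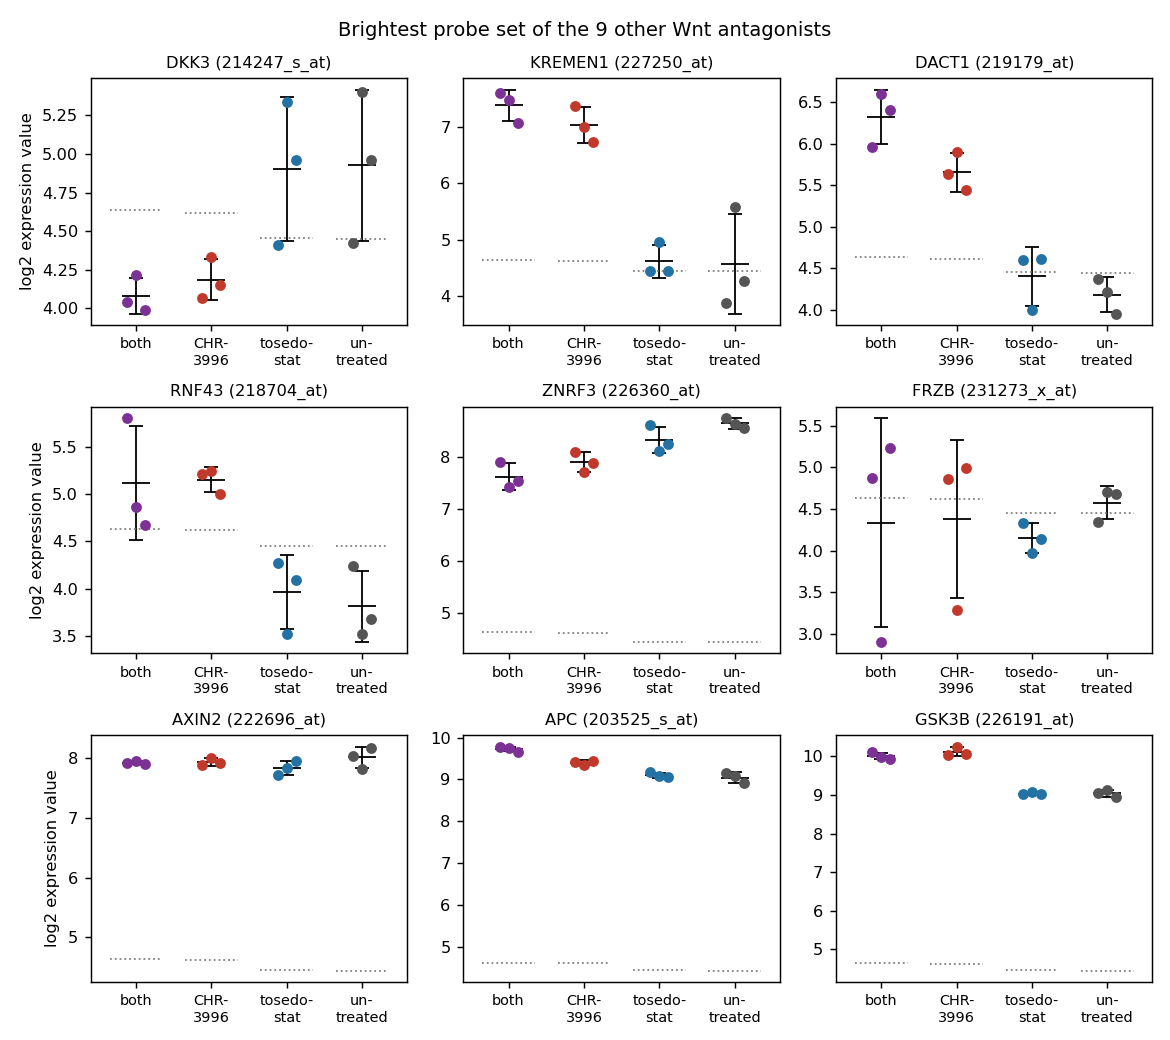
Log2 expression value (vertical axes, each with its own range) of the brightest tested probe set of the 9 other antagonists on each array (points), with group mean and SD (bars) and the mean 40th percentile of the arrays (dotted). KREMEN1, DACT1 and RNF43 stand higher and ZNRF3 and DKK3 lower in both groups with CHR-3996, and AXIN2 and FRZB overlap across the groups.

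DACT1, which binds Dishevelled inside the cell and can restrain the signal there, rose in both groups with CHR-3996. Probe set 219179_at measured 5.96, 6.60 and 6.41 in the combination, 5.63, 5.90 and 5.44 under CHR-3996, 4.6, 3.99 and 4.61 under tosedostat, and 4.37, 4.22 and 3.95 in untreated cells. Each array of the combination lay above each array of CHR-3996, and these lay above all arrays without CHR-3996. All 3 untreated arrays and 1 of 3 tosedostat arrays were below their 40th percentile. DACT1 thus passed the filter only through the groups where it was high, which favoured a call, and the size of the rise is uncertain. DACT1 rose by 2.14 under the combination (95% interval 1.66 to 2.63, adjusted p = 1.40e-05 from limma) and by 1.48 under CHR-3996 (95% interval 0.99 to 1.96, adjusted p = 0.000221). The combination exceeded CHR-3996 by 0.67 (unadjusted 95% interval 0.18 to 1.15), which did not pass over all probe sets (adjusted p = 0.331), and tosedostat alone gave 0.22 (adjusted p = 0.707).

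The 3 genes tied to the destruction complex behaved differently from each other. GSK3B, the kinase that marks β-catenin for destruction, rose under CHR-3996 in the 3 tested probe sets that lay above the 40th percentile on every array, and another that passed the filter only through its CHR-3996 arrays was also called. The brightest, 226191_at, measured 10.11, 9.98 and 9.95 in the combination, 10.05, 10.26 and 10.06 under CHR-3996, 9.02, 9.07 and 9.02 under tosedostat, and 9.05, 9.13 and 8.95 in untreated cells. The 6 arrays with CHR-3996 lay above the 6 without it, with no overlap. Its change was 0.97 under the combination (95% interval 0.74 to 1.20, adjusted p = 2.06e-05 from limma) and 1.08 under CHR-3996 (95% interval 0.85 to 1.31, adjusted p = 9.97e-06), and tosedostat gave -0.01 (95% interval -0.24 to 0.22). Probe set 226183_at rose further, by 1.92 under the combination and 2.16 under CHR-3996 (adjusted p = 2.11e-06 and 1.12e-06). Probe set 242336_at changed by 0.22 under the combination, not called, and by 0.80 under CHR-3996, called. All of its combination, tosedostat and untreated arrays lay below their 40th percentile and its 3 CHR-3996 arrays above, so the filter favoured that call. Probe set 209945_s_at rose by 0.74 under the combination and by 0.38 under CHR-3996. This last call (adjusted p = 0.0441) was lost in 13 of 19 alternatives, quantile normalization (0.12) and equal array medians (0.16) among them, with adjusted p of 0.00699 to 0.416. CHR-3996 exceeded tosedostat in 209945_s_at by 0.36 (adjusted p = 0.0602, and 0.0106 with the replicate number as a block).

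APC, the scaffold of the complex, rose under CHR-3996 in 3 of 4 tested probe sets of 5, by sizes that differed between them. The brightest, 203525_s_at, measured 9.78, 9.74 and 9.67 in the combination, 9.43, 9.34 and 9.44 under CHR-3996, 9.17, 9.07 and 9.05 under tosedostat, and 9.15, 9.07 and 8.91 in untreated cells. The combination arrays lay above the CHR-3996 arrays, and these above all others. The change of 203525_s_at was 0.68 under the combination (95% interval 0.46 to 0.91, adjusted p = 0.000218 from limma) and 0.36 under CHR-3996 (95% interval 0.13 to 0.58, adjusted p = 0.0140), and the combination exceeded CHR-3996 by 0.33 (unadjusted 95% interval 0.10 to 0.55, adjusted p = 0.312). The CHR-3996 call of 203525_s_at was lost with quantile normalization (0.18), equal array medians (0.14), a fit to these 6 arrays alone, and without untreated replicate 3 (0.29), with adjusted p of 0.00659 to 0.326 over its alternatives. The other called probe sets were 203527_s_at, with 1.60 under the combination and 1.34 under CHR-3996 (adjusted p = 1.22e-05 and 4.44e-05), and 203526_s_at, with 0.75 under the combination and 0.50 under CHR-3996. The rise of 203527_s_at held in all 19 alternatives, and the CHR-3996 call of 203526_s_at was lost with quantile normalization (0.14, adjusted p = 0.295) and equal array medians (0.28, adjusted p = 0.0744). The fourth, 215310_at, had -0.45 under the combination and -0.19 under CHR-3996 and was not called, but was called lower after quantile normalization (-0.77 under the combination and -0.51 under CHR-3996) and, under the combination, with equal array medians (-0.70). Its combination change was also called without CHR-3996 replicate 3 (-0.45, adjusted p = 0.0468) or untreated replicate 1 (-0.63).

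AXIN2, a scaffold of the complex that is itself a widely used Wnt target gene, did not change beyond its spread in the deposited scaling. Probe set 222696_at measured 7.92, 7.95 and 7.90 in the combination, 7.88, 8.01 and 7.91 under CHR-3996, 7.72, 7.84 and 7.95 under tosedostat, and 8.04, 7.82 and 8.18 in untreated cells. The groups overlapped, with changes of -0.09 under the combination (95% interval -0.35 to 0.17), -0.08 under CHR-3996 (95% interval -0.33 to 0.18) and -0.18 under tosedostat (95% interval -0.43 to 0.08). AXIN2 was called lower after quantile normalization (-0.49 under the combination, adjusted p = 0.00470, and -0.38 under CHR-3996, adjusted p = 0.0174) and with equal array medians (-0.34, adjusted p = 0.0260, and -0.30, adjusted p = 0.0452). Over all alternatives the adjusted p ranged between 0.00470 and 0.969 for the combination and between 0.0174 and 0.982 for CHR-3996. The second tested probe set of AXIN2, 224176_s_at, was not called in any contrast.

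When tosedostat was added to CHR-3996, 0 of the 10 antagonists passed the limma test in either direction, against 0.0577% of all genes called higher and 0.00% lower. At an unadjusted p under 0.05, 3 of the 19 probe sets were higher (DACT1, APC 203525_s_at and GSK3B 209945_s_at) and 1 lower (GSK3B 242336_at, -0.58). In the comparison of the combination with tosedostat, 6 were higher and 2 lower (30.4% and 15.8% of all genes), and of CHR-3996 with tosedostat 6 were higher and 1, DKK3, lower (27.9% and 19.3%). The APC call in this last comparison, 0.30 for 203525_s_at, was lost in 8 of 19 alternatives, with adjusted p of 0.0167 to 0.505, among them without tosedostat replicate 2 or 3 or CHR-3996 replicate 1 or 3 (0.28 to 0.29). No antagonist passed the test of the combination against the sum of the single effects, in which 0.0321% of all genes were called higher and 0.244% lower, and DKK1 alone was under 0.05 before adjustment. For KREMEN1 the measured effect of both compounds was 2.81 and the sum of the single effects 2.50, for DACT1 the measured effect was 2.14 and the sum 1.69, and for RNF43 the measured effect was 1.30 and the sum 1.49. ZNRF3 had a measured effect of -1.02 and a sum of -1.06, and GSK3B a measured effect of 0.97 and a sum of 1.07. The 2 values differed by 0.05 to 0.45 for these genes, against 1.25 for DKK1.

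**Figure D4:**
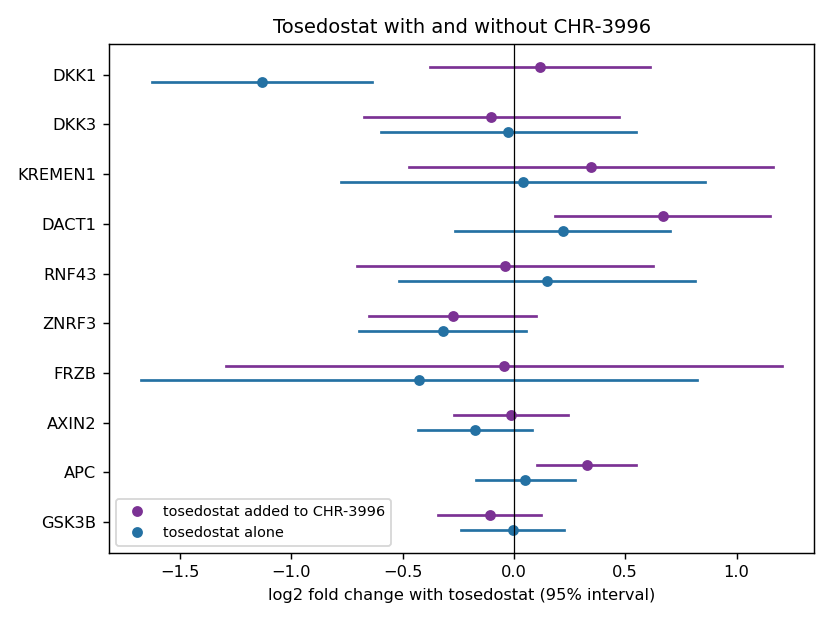
Log2 fold change with tosedostat (horizontal axis, 95% interval unadjusted) for the brightest tested probe set of each antagonist, when tosedostat was added to CHR-3996 (combination against CHR-3996) and when given alone (tosedostat against untreated). For DKK1 the change was 0.12 in cells with CHR-3996 and -1.13 in cells without it.

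The 14 probe sets of the 10 antagonists that did not pass the filter had group means between 0.91 and 4.34. In a fit with no filter 3 calls were made among them, all for the combination against untreated cells: APC 216933_x_at with 1.13 (adjusted p = 0.0325 from limma), DKK3 207875_at with 2.02 (adjusted p = 0.0478) and DKK3 230508_at with -1.68 (adjusted p = 0.0414). The DKK3 probe sets moved in opposite directions there, at values below the 40th percentile on every array, except 1 untreated array for 230508_at.

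Other antagonists of the pathway, from a list of 32 genes of which 22 were tested, were mostly not called. Under the combination 6 were higher and 0 lower, with a median change of 0.04, against 34.6% and 15.9% of all genes with a median of 0.15. Under CHR-3996 5 were higher and 1 lower, with a median of 0.07, against 31.7% and 18.0% of all genes with a median of 0.11. CXXC4, which binds Dishevelled, had changes of 2.89 under the combination and 3.16 under CHR-3996 (adjusted p = 6.13e-07 and 4.11e-07 from limma). DACT3, a relative of DACT1, rose by 3.04 under the combination and 2.55 under CHR-3996. HBP1, a repressor of Wnt target genes, rose by 2.49 under the combination and 2.34 under CHR-3996. TLE4, a co-repressor of the Groucho family, rose by 1.19 under the combination and 1.36 under CHR-3996. HBP1 was also called higher under tosedostat, by 0.92 (adjusted p = 0.0175). CXXC5, the relative of CXXC4, was the gene called lower under CHR-3996 (-0.97, adjusted p = 0.00250). With quantile normalization 5 of the 22 were called higher and 5 lower under the combination and 5 higher and 4 lower under CHR-3996, and with equal array medians 5 were higher and 3 lower under each, so the lower calls in this list depended on the scaling. Calls over all probe sets shifted too. Of those for the combination, 69.3% were higher as deposited, 46.6% with quantile normalization and 48.8% with equal array medians. For CHR-3996 these shares were 65.1%, 47.6% and 47.2%, and the same shift bears on the lists that follow.

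As deposited, all but 1 of the genes called among receptors and signal-transducing proteins were higher, and the other scalings gave more lower calls. Beside these counts stand 34.6% of all genes called higher and 15.9% lower under the combination and 31.7% higher and 18.0% lower under CHR-3996. Of 13 tested receptors 8 were higher and 0 lower under the combination and 9 and 0 under CHR-3996, with median changes of 0.58 under the combination and 0.42 under CHR-3996. With quantile normalization 6 receptors were higher and 2 lower under the combination and 6 higher and 1 lower under CHR-3996, and with equal array medians 6 were higher and 1 lower under each. LGR4, the receptor for R-spondins, had 2.19 under the combination and 1.85 under CHR-3996, and the Frizzled receptor FZD7 had 1.65 under the combination and 1.34 under CHR-3996. LRP6, the co-receptor that DKK1 binds, had 1.17 under the combination and 1.27 under CHR-3996, and FZD2 had 1.56 under the combination and 1.22 under CHR-3996. Of 24 tested proteins of signal transduction, 16 were higher and 1 lower under each of the combination and CHR-3996. Under the combination 11 were higher and 5 lower with quantile normalization and 12 higher and 5 lower with equal array medians, and under CHR-3996 12 were higher and 3 lower with either. FRAT1, which inhibits GSK3B, had 2.64 under the combination and 2.65 under CHR-3996, and CTNNA1, α-catenin, had 2.29 under the combination and 2.31 under CHR-3996. BCL9L, a co-activator of β-catenin, had 2.46 under the combination and 2.07 under CHR-3996, and TNKS, a tankyrase that destabilises AXIN, had 1.45 under the combination and 1.52 under CHR-3996. CSNK2A1, a subunit of casein kinase 2, was the 1 called lower, at -0.39 under the combination and -0.66 under CHR-3996. Of 13 tested ligands and secretion factors, RSPO2, an R-spondin, was the 1 called higher under the combination (0.67), and RSPO2 (0.72) and WLS, which carries Wnt ligands to the cell surface (0.54), were called higher under CHR-3996. RSPO2 averaged 4.18 in untreated cells, which is lower than the 40th percentile there, and its fold change is a rough one. The calls of this list turned with the scaling: under the combination 0 were higher and 4 lower with quantile normalization and with equal array medians, and under CHR-3996 1 was higher and 2 lower with quantile normalization and 0 higher and 2 lower with equal array medians.

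Of 14 tested genes that Wnt signals are known to induce, 5 were higher and 2 lower under the combination and likewise under CHR-3996, with medians of 0.41 under the combination and 0.34 under CHR-3996. These counts are near the shares of all genes, 34.6% of all genes called higher and 15.9% lower under the combination and 31.7% higher and 18.0% lower under CHR-3996. Quantile normalization gave 5 higher and 4 lower under the combination and 5 higher and 3 lower under CHR-3996, and equal array medians gave 4 higher and 4 lower under the combination and 4 higher and 3 lower under CHR-3996. JUN had 2.93 under the combination and 3.40 under CHR-3996, BMP4 2.63 in each, and SOX4 1.72 under the combination and 2.28 under CHR-3996. CCND1, cyclin D1, fell by 2.91 under the combination (log2 fold change -2.91) and by 2.01 under CHR-3996 (log2 fold change -2.01), and MYC, the other gene called lower, had -0.84 under the combination and -0.71 under CHR-3996. None of the 14 was called under tosedostat, and the receptor, ligand and transduction lists also had 0 calls there. Under that compound 4.25% of all genes were called higher and 0.545% lower, so 0 calls in lists of this size say little about these genes. The lists overlap before the filter. NKD1, NOTUM and APCDD1 stand both among these targets and among the other antagonists. LEF1, TCF7 and TCF7L1 stand also among the proteins of signal transduction, and LGR5 among the receptors.

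**Figure D5:**
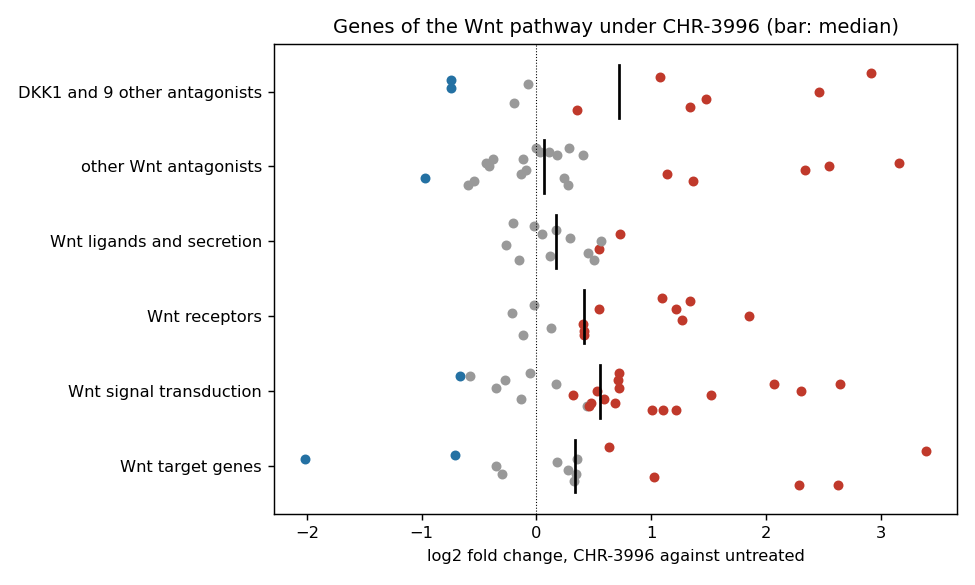
Log2 fold change, CHR-3996 against untreated (horizontal axis), of the tested genes of each list (points; red called higher, blue called lower, grey not called), with the list median as a bar. The medians run between 0.07 for the other antagonists and 0.72 for DKK1 and its 9 companions, against 0.11 for all genes.

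Among secreted factors linked to myeloma bone disease, DKK1 was 1 of 4 called higher of 11 tested under both the combination and CHR-3996, near the 34.6% of all genes called higher under the combination and 31.7% under CHR-3996. None was called lower as deposited under either, and 1 was lower under the combination with quantile normalization or equal array medians. The other 3 called higher were CCL4, a chemokine linked to osteoclast formation, with 5.20 under the combination and 5.18 under CHR-3996, SPP1, osteopontin, with 3.77 under the combination and 3.06 under CHR-3996, and ADM, adrenomedullin, with 1.58 under the combination and 1.31 under CHR-3996. SPP1 averaged 3.10 and ADM 4.36 in untreated cells, both lower than the 40th percentile there, and their fold changes are rough. SPP1 also averaged only 2.78 under tosedostat. It thus passed the filter only through the groups with CHR-3996, where it was high, which favoured its calls. Tosedostat moved DKK1 and CCL4 in opposite directions, DKK1 by -1.13 and CCL4 by 2.82 (adjusted p = 0.000513 from limma), and no other factor of this list was called under it.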

How the data were processed

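Gene expression was measured on 12 Affymetrix U133 Plus 2.0 arrays of H929 cells, 3 per group. Per the labels, RNA was amplified in 2 cycles and biotin-labelled. The authors normalized the arrays in dChip and deposited log2 expression values, 1 per probe set. How dChip normalized the arrays and summarized probes, and its version, is not given in the sources used here. That the scale is log2 follows from the range of the values, and 1141 to 1344 values per array are exactly 0.

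The 62 control probe sets were left out, and the values were not normalized again. The 36395 probe sets kept entered limma 3.58.1 (R 4.3.3), with a mean for each of the 4 groups (8 residual degrees of freedom), and 7 contrasts were adjusted separately by Benjamini and Hochberg. Symbols came from the platform annotation, updated to RefSeq symbols: 29161 kept probe sets have 1 symbol, 1365 several and 5869 none here. A gene was taken by its brightest kept probe set with 1 symbol (15587 genes). All probe sets of the 10 antagonists were named, with the 5 genes of highest Pearson r with DKK1 and at most 4 called genes per other list and contrast. CXXC5, CSNK2A1 and MYC were named beyond this rule, after their values were seen. The antagonists and lists were chosen with earlier results of these data known. The fit was tested on simulated data. Promoters were read from a RefSeq table. Python 3.11.15 with matplotlib 3.10.9 drew the figures.

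The groups share replicate numbers. After group means were subtracted, same-numbered arrays correlated above 0.1 in each of 3 pairs for the combination with CHR-3996 (lowest 0.179) and tosedostat (0.190), CHR-3996 with tosedostat (0.116) and tosedostat with untreated (0.126), but not for the combination (0.0981) or CHR-3996 (0.0358) with untreated cells. The alternatives tried comprised no filter, quantile normalization, equal array medians, the 60th percentile, the replicate block, a variance trend with robust estimation, the arrays of the compared groups alone, the mean of a gene's probe sets, and leaving out each array.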

Additional observations from a re-analysis of the deposited data

Results flagged for a closer look

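CCL4 (204103_at), a chemokine of the bone disease list, was the only tested gene of the lists or antagonists in which the effect of both compounds differed from the sum of the single effects by the test of that difference. That log2 difference was -2.80 (adjusted p = 0.0263 from limma, standard error 0.40). CCL4 averaged 12.20 in the combination, 12.18 under CHR-3996, 9.82 under tosedostat and 7.0 in untreated cells (n = 3 each).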

How the results depend on the processing

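DKK1 kept its direction in all 19 alternatives of each comparison with untreated cells. Under tosedostat its call was lost with no filter and with only the compared arrays (-1.13 in each), and leaving out each array gave -1.27 to -0.93. With the replicate block the departure of DKK1 from the sum of the single effects, 1.25, passed (adjusted p = 0.0259), making 1 antagonist called higher in that test. The groups in that test are not all paired by number, and the block changed no other call of an antagonist in the comparisons with untreated cells or of the combination.

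Antagonists called lower under CHR-3996 numbered 1 with no filter, the 60th percentile or the variance trend and 3 with quantile normalization or equal array medians (1 to 2 leaving out arrays), under tosedostat 0 with no filter or only the compared arrays (0 to 1), under the combination 1 at the 60th percentile and 3 with quantile normalization or equal array medians (1 to 2), for the combination against tosedostat 1 with no filter or the 60th percentile (1 to 2), and for CHR-3996 against tosedostat 2 with quantile normalization, equal array medians or the replicate block and 0 with no filter or only the compared arrays (0 to 1). At the 60th percentile the DKK3 probe set is not tested. Other causes were not tested.

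Calls over the whole table for tosedostat numbered 1338, with 686 for no filter, 2309 for the replicate block, 682 for only the compared arrays and 618 to 1446 leaving out arrays. For the combination against CHR-3996 they numbered 23, with 15 for equal array medians, 6 for no filter, 43 at the 60th percentile, 87 for the variance trend, 3 for only the compared arrays and 1 to 16 leaving out arrays. For the combination against the sum of the single effects they numbered 75, with 166 for quantile normalization, 22 for no filter, 224 at the 60th percentile, 231 for the replicate block, 245 for the variance trend and 22 to 84 leaving out arrays.

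Of the calls over all probe sets under CHR-3996, 65.1% were higher, against 47.6% with quantile normalization and 47.2% with equal array medians. The shares under the deposited scaling, quantile normalization and equal array medians were 69.3%, 46.6% and 48.8% for the combination, 87.7%, 75.9% and 87.1% for tosedostat, 67.5%, 47.7% and 45.8% for the combination against tosedostat, and 61.3%, 47.7% and 43.3% for CHR-3996 against tosedostat. For probe sets of the antagonists other than DKK1, 21 results lost and 15 gained their call under alternatives that kept every array, 36 lost and 9 gained it when an array was left out, and none that was called changed direction. Values near the 40th percentile (DKK3, FRZB, GSK3B 242336_at, and DACT1, KREMEN1 and RNF43 without CHR-3996) limit the size of a change that can be read, and 3 arrays per group limit the precision.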
